A study of Mus musculus with 4 samples.

Results

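The serpins are a family of protease inhibitors, and 48 genes with a symbol beginning Serpin, of 19938 genes with a probe set of a single symbol, were read here from expression arrays of mouse bone marrow macrophages. Every such gene was taken, whatever its value, and each was measured by 1 probe set. A gene was marked as being at background when both group means lay under 5.90 on the log2 scale, which is the 95th percentile of 1027 olfactory receptor genes, averaged over the arrays. By that rule 38 serpin genes were at background and 10 were above it in at least 1 group. Family members outside these 48 genes were not analysed here.

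The arrays compared C57BL/6J bone marrow cultures kept for 7 days in one or the other of 2 macrophage growth factors. GM-CSF cells (2 arrays), called M1 by the submitters, grew with granulocyte-macrophage colony-stimulating factor and were gated on CD45, MHC class II and the macrophage protein that Adgre1 encodes, without CD8a. M-CSF cells (2 arrays), called M2, grew with 20% supernatant of L929 cells, a fibroblast line that supplies macrophage colony-stimulating factor, and were gated on CD45, the Adgre1 protein and CD11b. Growth factor, supernatant and sort gate differed together and cannot be told apart, and no label tells if the replicates came from different animals or cultures.

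Most serpins stop a serine protease by offering it a loop as bait. When the protease cuts the loop, the serpin changes shape and holds the enzyme in a dead complex, which cell surface receptors such as Lrp1 clear. Subfamily A holds mainly secreted plasma proteins, whereas subfamily B proteins mostly stay inside cells and protect them from proteases of their own granules and lysosomes. In macrophages the best known member is Serpinb2, also called plasminogen activator inhibitor 2, which inhibits urokinase and is induced when monocytes and macrophages are activated. Some members inhibit nothing, such as Serpinh1, the collagen chaperone of the endoplasmic reticulum.

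The deposited values are RMA values, log2 expression per probe set. Defining macrophage genes were high in both groups: Adgre1 read 12.32 and 12.61 in GM-CSF cells against 12.73 and 12.79 in M-CSF cells, and all 9 measured macrophage markers were above background. The GM-CSF arrays stood further apart from each other than the M-CSF arrays did. Over the 14995 genes tested, replicate 1 minus replicate 2 had an SD of 0.33 in GM-CSF cells and 0.18 in M-CSF cells. Xist, which silences one X chromosome in females, read 11.58 in GM-CSF replicate 1 and 4.93 in GM-CSF replicate 2, against 4.53 and 4.80 in M-CSF cells. Eif2s3y, a gene of the Y chromosome, read 3.66 in GM-CSF replicate 1 and 9.10 in GM-CSF replicate 2, against 9.32 and 9.17 in M-CSF cells. By these genes GM-CSF replicate 1 held female cells and the other 3 arrays male cells, so the GM-CSF arrays came from different animals, while the spread of the M-CSF pair may be technical. Sex and any other difference between the GM-CSF arrays cannot be told apart in a replicate gap or a left-out value. Results for the serpins that turn on this pair are therefore given with and without each GM-CSF array.

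Among the 48 serpin genes, 10 were above background in at least 1 group. The share of all genes above that level was not counted. Subfamily B, the intracellular serpins, had 7 of 24 genes above background, subfamily F both of its 2 genes and subfamily E its single gene. The subfamily E and F genes lay close to that level, and under the 99th percentile of olfactory receptor genes (6.67). None of the 15 subfamily A genes was above background, nor were the genes of subfamilies C, D, G, H and I. Of the 48 genes, 15 passed the filter on dim genes (at least 2 of 4 arrays above that array's 30th percentile) and were tested, 9 of them above background. Serpinb2 was higher in GM-CSF cells and Serpinb6a was lower (limma, Benjamini-Hochberg adjusted p under 0.05 over all genes tested). These 2 calls are 13.3% of the tested serpins, beside 10.7% of all genes tested, a share near the background. By direction, 6.18% of all genes tested were called higher and 4.53% lower. The median absolute log2 difference was 0.16 for the tested serpins and 0.15 for all genes tested, and the signed medians were 0.01 and -0.01. With 2 arrays against 2, an exact permutation test of a single gene cannot give a two-sided p below 0.333, so the calls rest on limma's pooling of the spread across genes.

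**Figure D1:**
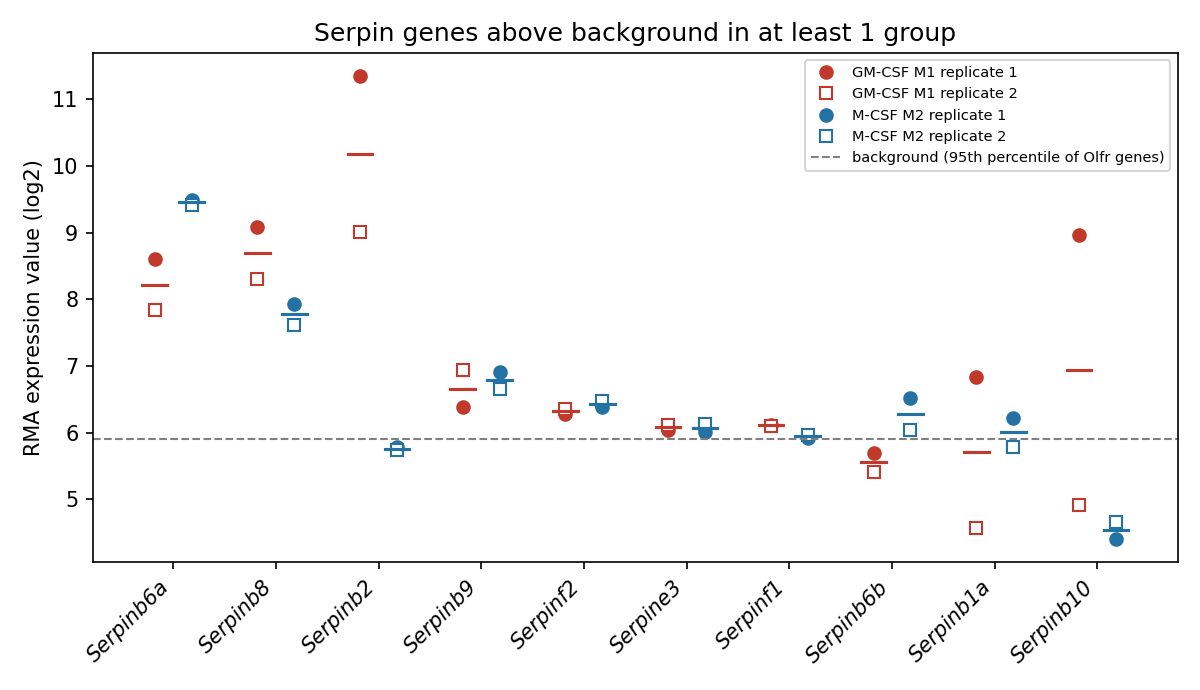
RMA values (log2) of the 10 serpin genes above background in at least 1 group, ordered by mean level, with GM-CSF arrays in red left of M-CSF arrays in blue. Filled circles are replicate 1, open squares replicate 2, short bars the group means, and the dashed line the background at 5.90. Serpinb2 and Serpinb10 show the wide gap between the GM-CSF arrays, with Serpinb10 above background in GM-CSF replicate 1 alone.

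Serpinb2, the urokinase inhibitor, read 11.35 and 9.0 in GM-CSF cells against 5.79 and 5.74 in M-CSF cells. Both GM-CSF arrays lay far above both M-CSF arrays, and the M-CSF arrays lay at background. The mean was 10.18 ± 1.66 in GM-CSF cells and 5.76 ± 0.04 in M-CSF cells (SD, n = 2 each). The log2 difference was 4.41 ± 0.68 (SE), or 21.3-fold, with an adjusted p of 0.0117 from limma and a 95% confidence interval of 2.77 to 6.05. Because the M-CSF mean lies at background, the fold depends on that background, and the GM-CSF mean stood 4.27 above the background level on the log2 scale. With GM-CSF replicate 1 left out the difference was 3.24, and with replicate 2 of that group left out it was 5.58. It lost its call without either M-CSF array and with trended and robust variances (limma, adjusted p = 0.17). With all 4 arrays its adjusted p from limma ran from 0.00353 to 0.17 over the settings. Each fit with an array left out keeps a single array in 1 group and takes its spread from the other pair, so no p-value is given for them.

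Serpinb10, called bomapin, is a serpin of haematopoietic cells. It read 8.97 and 4.92 in GM-CSF cells against 4.40 and 4.67 in M-CSF cells. Only GM-CSF replicate 1 was above background, although the groups did not overlap. The gene failed the dim filter and was not tested. Its mean was 6.95 ± 2.86 in GM-CSF cells and 4.54 ± 0.19 in M-CSF cells (SD, n = 2 each). The log2 difference of 2.41 came to 0.39 with GM-CSF replicate 1 left out and to 4.44 with replicate 2 left out, and with no filter limma gave an adjusted p of 0.318. The GM-CSF mean stood 1.04 above the background level. The gap of 4.05 between the GM-CSF arrays ranked 4 of 19938 genes by size, but replicate 2 lay under background, so that the size of the gap depends on that background.

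Serpinb8 encodes a cytoplasmic serpin whose human counterpart inhibits furin. It read 9.09 and 8.31 in GM-CSF cells against 7.93 and 7.62 in M-CSF cells. The groups did not overlap, and all 4 arrays were well above background. Its log2 difference of 0.92 ± 0.26 (SE) did not pass (limma, adjusted p = 0.078, 95% interval 0.30 to 1.55). With GM-CSF replicate 1 left out it was 0.54, and with replicate 2 left out 1.31. Both of these fits keep a single GM-CSF array and take their spread from the closer M-CSF pair, so no p-value is given for them. Serpinb8 also did not pass with arrays centred on their medians (limma, adjusted p = 0.0515) or with trended and robust variances (0.145).

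Serpinb2, Serpinb10 and Serpinb8 are adjacent protein-coding genes in the RefSeq table (GRCm38.p6), in that order, and end a run of subfamily B genes. The 250 bases before the first listed start of each are shown because these neighbours had the 3 highest GM-CSF minus M-CSF differences among the serpins. Capitals mark matches, on either strand, to AP-1 (TGANTCA), a C/EBP motif (TTGCNNAA), a STAT motif (TTCNNNGAA) and the TATA box (TATAAA), with CRE (TGACGTCA) and PU.1 (GAGGAAGT) also searched and no overlap between the marked matches. Sequences are RefSeq's, written 5′ to 3′ along the gene's strand.
Serpinb2, chr1:107511173-107511422, plus strand: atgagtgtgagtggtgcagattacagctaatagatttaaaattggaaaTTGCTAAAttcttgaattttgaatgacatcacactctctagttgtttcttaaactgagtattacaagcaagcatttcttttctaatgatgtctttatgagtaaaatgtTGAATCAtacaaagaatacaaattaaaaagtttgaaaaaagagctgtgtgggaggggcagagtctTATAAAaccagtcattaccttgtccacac
Serpinb10, chr1:107528753-107529002, plus strand: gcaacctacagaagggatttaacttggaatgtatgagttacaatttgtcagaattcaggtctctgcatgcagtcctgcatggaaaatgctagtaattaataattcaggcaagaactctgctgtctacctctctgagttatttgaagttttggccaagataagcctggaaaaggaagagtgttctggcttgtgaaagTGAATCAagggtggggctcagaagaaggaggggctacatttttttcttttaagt
Serpinb8, chr1:107589756-107590005, plus strand: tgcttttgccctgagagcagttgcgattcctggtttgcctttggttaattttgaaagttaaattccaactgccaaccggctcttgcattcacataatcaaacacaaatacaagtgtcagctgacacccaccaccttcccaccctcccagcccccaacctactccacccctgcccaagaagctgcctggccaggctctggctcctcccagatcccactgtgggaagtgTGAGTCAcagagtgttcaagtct
Each of the 3 windows holds an AP-1 match, which starts 94 bases before the start of Serpinb2, 54 before that of Serpinb10 and 23 before that of Serpinb8. The motif occurs in 6.75% of all 32851 promoter windows of this length. It is also found upstream of members at background: of 41 serpin genes with a promoter in the table, 9 hold it, and 7 of these lie among the 10 subfamily B genes of chromosome 1 that have one. None of the 12 subfamily B genes with a promoter on chromosome 13 holds it. Serpinb2 alone of the 3 windows shown also holds a TATA box, 29 bases before its start (12.4% of all windows), and a C/EBP match (9.56%). These matches describe letters only, and binding was not measured.

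Serpinb6a was the serpin lower in GM-CSF cells. It encodes an intracellular inhibitor of cathepsin G and trypsin-like proteases. Its values were 8.60 and 7.83 in GM-CSF cells against 9.49 and 9.42 in M-CSF cells. Both GM-CSF arrays were below both M-CSF arrays, and all were far above background. The mean was 8.22 ± 0.54 in GM-CSF cells and 9.45 ± 0.05 in M-CSF cells (SD, n = 2 each), a log2 difference of -1.24 ± 0.24 (SE), or 2.36-fold lower (limma, adjusted p = 0.027, 95% interval -1.82 to -0.65). Leaving out GM-CSF replicate 1 gave -1.62, and leaving out replicate 2 gave -0.85. Without M-CSF replicate 1 the call was lost (limma, adjusted p = 0.247), as it was without M-CSF replicate 2 (0.224) and with trended and robust variances (0.0552), in a range of 3.2e-07 to 0.247.

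Serpinb6b, a close paralog of Serpinb6a, read 5.69 and 5.42 in GM-CSF cells against 6.52 and 6.05 in M-CSF cells. Both GM-CSF arrays lay below background and both M-CSF arrays just above it. Its log2 difference of -0.73 ± 0.19 (SE) did not pass (limma, adjusted p = 0.0607, 95% interval -1.19 to -0.28). It passed with arrays centred on their medians (limma, adjusted p = 0.0497), but not with no dim filter (0.0794) or with quantile normalization again (0.0825). Its log2 difference was -0.87 with GM-CSF replicate 1 left out and -0.59 with replicate 2 left out. Probes of paralogs as close as Serpinb6a and Serpinb6b may not tell their transcripts apart. The 250 bases before the first listed starts of the pair are shown for comparison with the chromosome 1 genes.
Serpinb6a, chr13:34002795-34003044, minus strand: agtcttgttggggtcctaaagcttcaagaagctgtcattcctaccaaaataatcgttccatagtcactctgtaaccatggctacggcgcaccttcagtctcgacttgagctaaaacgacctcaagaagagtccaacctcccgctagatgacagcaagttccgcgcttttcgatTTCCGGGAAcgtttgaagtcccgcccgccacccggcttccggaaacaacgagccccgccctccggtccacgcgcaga
Serpinb6b, chr13:32965011-32965260, plus strand: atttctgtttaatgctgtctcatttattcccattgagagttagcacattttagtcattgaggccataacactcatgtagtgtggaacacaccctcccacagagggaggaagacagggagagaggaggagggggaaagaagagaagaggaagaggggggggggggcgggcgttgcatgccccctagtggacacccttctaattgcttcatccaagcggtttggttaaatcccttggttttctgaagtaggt
Neither window holds an AP-1 match. Serpinb6a has a STAT match that starts 77 bases before its start, a motif found in 7.02% of all windows, and Serpinb6b matched none of the motifs searched. The STAT match does not set Serpinb6a apart from the chromosome 1 genes. Another listed start of Serpinb2, not shown, also has one 77 bases before it, while the other listed start of Serpinb6a has none.

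**Figure D2:**
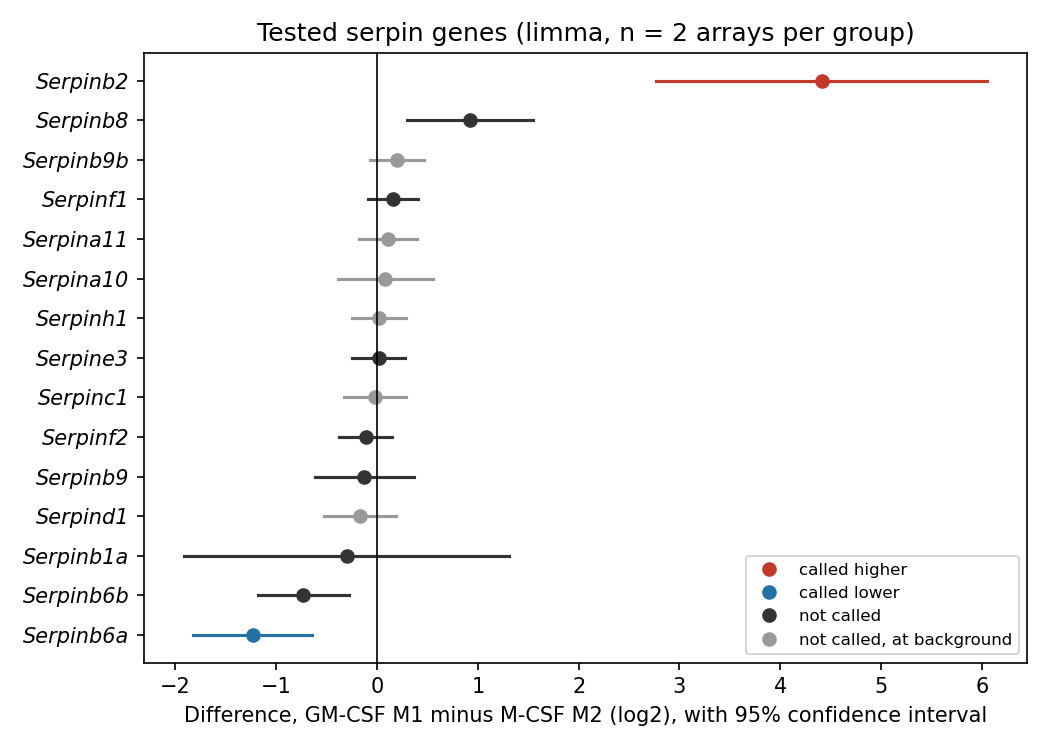
Log2 difference, GM-CSF minus M-CSF, of the 15 tested serpin genes with its 95% confidence interval from limma (n = 2 arrays per group). Red is called higher, blue called lower, black not called, and grey not called and at background. Serpinb2 lies at 4.41 and Serpinb6a at -1.24, while Serpinb1a has the widest interval among genes that were not called.

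Serpinb1a inhibits the neutrophil proteases elastase, proteinase 3 and cathepsin G. It read 6.84 and 4.58 in GM-CSF cells against 6.23 and 5.79 in M-CSF cells. The GM-CSF arrays lay on either side of both M-CSF arrays. Its log2 difference was -0.30 ± 0.66 (SE, limma adjusted p = 0.842, 95% interval -1.91 to 1.31). It was -1.43 with GM-CSF replicate 1 left out and 0.83 with replicate 2 left out, so that its direction depended on the array kept. Each of these fits keeps a single GM-CSF array and takes its spread from the M-CSF pair, so no p-value is given for them.

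Serpinb9, the inhibitor of granzyme B, read 6.38 and 6.94 in GM-CSF cells against 6.91 and 6.66 in M-CSF cells. The groups overlapped. Its log2 difference was -0.13 ± 0.20 (SE, limma adjusted p = 0.772), and the 95% interval of -0.62 to 0.36 leaves room for a change in either direction. The difference was 0.15 without GM-CSF replicate 1.

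The remaining members above background were close to it and differed little. Serpinf2, alpha-2-antiplasmin, the plasma inhibitor of plasmin, read 6.28 and 6.36 in GM-CSF cells against 6.38 and 6.48 in M-CSF cells, a log2 difference of -0.11 (95% interval -0.38 to 0.15). Serpinf1, the secreted pigment epithelium-derived factor, which does not inhibit proteases, read 6.11 in both GM-CSF arrays against 5.92 and 5.97 in M-CSF cells, a difference of 0.16 (-0.09 to 0.41). Serpine3 read 6.05 and 6.12 in GM-CSF cells against 6.01 and 6.13 in M-CSF cells, a difference of 0.01 (-0.25 to 0.28). None of these 3 passed the test, and the intervals bound how far each could differ.

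Of the 15 tested serpins, 7 had groups that did not overlap, 4 with GM-CSF above M-CSF cells (Serpinb2, Serpinb8, Serpinb9b and Serpinf1) and 3 with GM-CSF below (Serpinb6a, Serpinb6b and Serpinf2). That is 46.7%, beside 55.4% of all genes tested. By direction, 26.3% of all genes tested had both GM-CSF arrays above and 29.2% below. At an unadjusted p under 0.05, limma gave 2 serpins higher and 2 lower, which is 26.7% of those tested, beside 25.5% of all genes tested (12.9% higher and 12.6% lower), a share near the background.

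The 38 members at background had values from 2.12 to 5.90 over the 4 arrays, and their differences were at most 0.45 on the log2 scale. At such levels a change in expression may not be visible. Among them, 6 passed the dim filter and none was called: Serpinb9b, Serpinc1 (antithrombin, the inhibitor of thrombin and factor Xa), Serpind1 (heparin cofactor II), Serpina10 (the protein Z-dependent inhibitor of factor Xa), Serpina11 and Serpinh1. Serpinh1 read 5.44 and 5.32 in GM-CSF cells against 5.33 and 5.39 in M-CSF cells, a difference of 0.02 (95% interval -0.25 to 0.29). Serping1, the C1 inhibitor of the complement and contact systems, read 4.87 and 4.81 in GM-CSF cells against 5.27 and 5.23 in M-CSF cells. Its log2 difference of -0.41 had groups that did not overlap, but both lay under the background level, and it was not tested. With no filter its adjusted p from limma was 0.0849.

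The other 31 members at background were not tested. In subfamily A they were Serpina1c, Serpina1d, Serpina1f, Serpina3a, Serpina3b, Serpina3n, Serpina4-ps1, Serpina5, Serpina6, Serpina7, Serpina9, Serpina12 and Serpina16. Serpina6 and Serpina7 encode hormone carriers of the plasma, for glucocorticoids and thyroid hormone. In subfamily B they were Serpinb1b, Serpinb1c, Serpinb3a, Serpinb3c, Serpinb3d, Serpinb5, Serpinb6c, Serpinb6d, Serpinb6e, Serpinb7, Serpinb9c, Serpinb9d, Serpinb9e, Serpinb11, Serpinb12 and Serpinb13. Serpini1, the neuronal serpin neuroserpin, and Serpini2 made up the rest. A further 5 probe sets carry several serpin symbols, of the Serpina1 and Serpinb9 paralogs, and were not assigned to a gene. Their values ran from 4.05 to 5.78, all under the background level.

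The serpins with the widest gaps between the GM-CSF arrays were higher in replicate 1. After Serpinb10, Serpinb2 (2.34) ranked 28 and Serpinb1a (2.26) ranked 31 of 19938 genes by the size of the gap, Serpinb1a with replicate 2 under background, and Serpinb8 (0.77) and Serpinb6a (0.77) ranked 459 and 462. Serpinb9 went the other way, with a gap of -0.56 that ranked 991. Some markers of other cells were also higher in GM-CSF replicate 1. So were the macrophage markers Mrc1 (10.54 against 8.68 in replicate 2) and Mertk (10.84 against 10.32). Cd68, Itgam and Lyz2 were nearly level, higher in replicate 1 by 0.02, 0.04 and 0.06. The macrophage markers Adgre1, Csf1r, Cd14 and Fcgr1 were lower in GM-CSF replicate 1 than in GM-CSF replicate 2. The summed level of 10 neutrophil markers, on the linear scale of the RMA values, was 1404 in GM-CSF replicate 1 and 648.4 in replicate 2, against 879.5 and 765.7 in M-CSF cells, with 7 of the 10 above background. Ngp, a neutrophil granule gene, read 9.02 and 7.02 in GM-CSF cells against 8.40 and 7.83 in M-CSF cells, while the neutrophil markers Retnlg and Cxcr2 were at background in every array. S100a8 (8.54 and 7.04), S100a9 (6.93 and 6.06) and Ltf (6.79 and 5.89) were, like Ngp, higher in GM-CSF replicate 1 than in replicate 2. So was Ly6g (6.18 and 5.45), although both its group means lay under background. Camp (5.86 and 6.03), Elane (5.78 and 5.96) and Mpo (5.65 and 5.68) were not higher in GM-CSF replicate 1 than in replicate 2. Of 8 neutrophil markers tested, limma called Mpo lower in GM-CSF cells (adjusted p = 0.0132) and 0 higher, beside 4.53% and 6.18% of all genes tested. At an unadjusted p under 0.05 limma gave 1 higher, Ly6g, and 1 lower, beside 12.9% and 12.6% of all genes tested. The sum of 8 dendritic cell markers, 5 of them above background, was 2352 and 1612 in GM-CSF cells against 398.2 and 419.3 in M-CSF cells. Most of that sum in GM-CSF cells came from Itgax, which encodes CD11c and read 10.72 and 10.05 in GM-CSF cells against 6.01 and 5.71 in M-CSF cells. Limma called 3 of the 8 dendritic cell markers higher and 0 lower (also 0 lower at an unadjusted p under 0.05), beside 6.18% and 4.53% of all genes tested. The sum of 10 mast cell and basophil markers, 2 of them above background, was 400.0 and 329.4 in GM-CSF cells against 331.5 and 345.3 in M-CSF cells, with Mcpt4 and Cma1 at background in every array. Cpa3, a mast cell protease gene, read 5.91 and 4.46 in GM-CSF cells against 4.77 and 4.61 in M-CSF cells, and Kit, the stem cell factor receptor, 6.30 and 5.75 in GM-CSF cells against 5.85 and 5.94 in M-CSF cells. Both were highest in GM-CSF replicate 1, as Serpinb2, Serpinb10 and Serpinb1a were, although both group means of Cpa3 lay under background. Gata2 and Mcpt8 were also highest there, while Tpsb2, Tpsab1, Mcpt4, Cma1, Fcer1a and Ms4a2 were not. The sum of 4 measured megakaryocyte and erythroid markers was 4781 and 2271 in GM-CSF cells against 1182 and 974.4 in M-CSF cells, most of it from Pf4. Limma called Pf4 higher in GM-CSF cells (adjusted p = 0.0248) but Gp9 lower (0.0113). Itga2b read 6.30 and 6.37 in GM-CSF replicates 1 and 2, and Alas2 was at background. The sum of 8 fibroblast markers was 777.5 and 667.0 in GM-CSF cells against 613.1 and 645.6 in M-CSF cells, and that of 7 measured lymphocyte markers 210.6 and 218.0 against 208.1 and 225.8. The part of these cells in the serpin values was not tested, and in a bulk sample fewer cells of a type and less RNA per cell cannot be told apart.

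**Figure D3:**
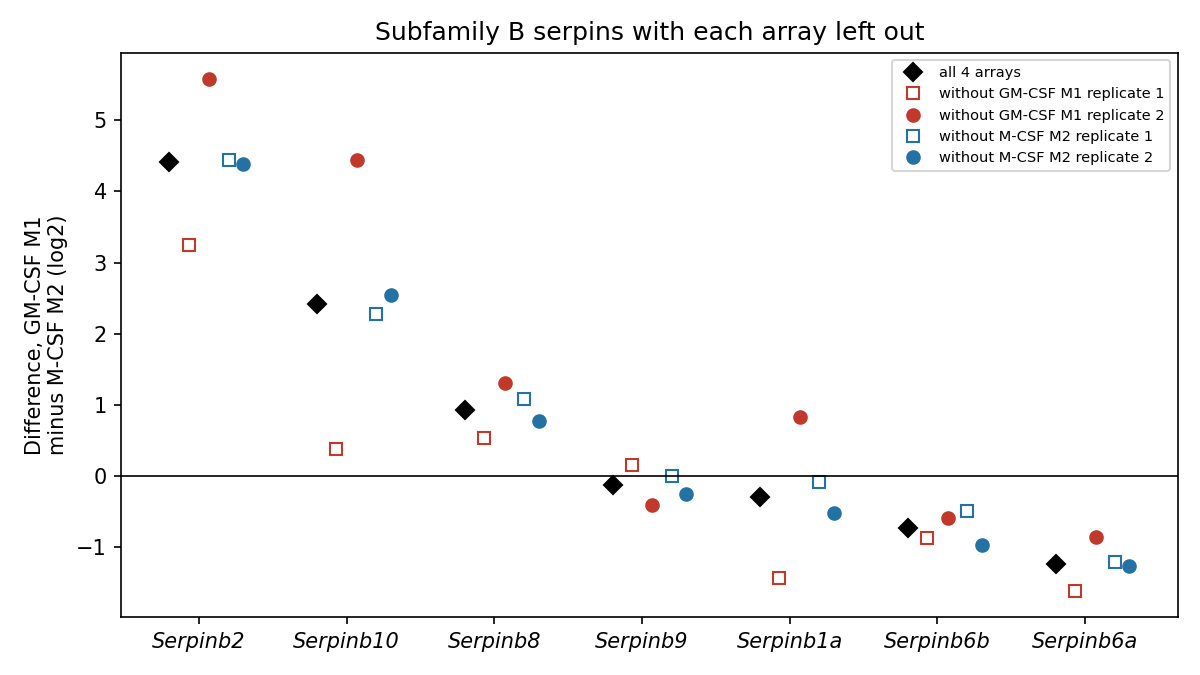
Log2 difference, GM-CSF minus M-CSF, of 7 subfamily B serpins with all 4 arrays (diamonds) and with each array left out in turn (red for a GM-CSF array left out, blue for an M-CSF array left out, open squares replicate 1, filled circles replicate 2). Serpinb1a lies at -1.43 or 0.83 and Serpinb10 at 0.39 or 4.44, depending on the GM-CSF array kept, while Serpinb2 and Serpinb6a keep their sides of 0.

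Plaur, the urokinase receptor, was higher in GM-CSF cells, as was the urokinase inhibitor Serpinb2. Of 12 genes tested in a list of 13 from the plasminogen system, 3 passed as higher, 2 as lower and 7 not at all, with a median log2 difference of 0.28 beside -0.01 for all genes tested. For this list and those below, the shares over all genes tested were 6.18% called higher and 4.53% lower (limma). At an unadjusted p under 0.05 they were 12.9% and 12.6%. Plaur read 10.88 and 9.26 in GM-CSF cells against 7.70 and 7.53 in M-CSF cells, with the higher value in the same array as for Serpinb2. Its log2 difference was 2.45 ± 0.48 (SE, limma adjusted p = 0.0263), and the call was lost without M-CSF replicate 1 (0.225), without M-CSF replicate 2 (0.245) and with trended and robust variances (0.197). Plau, urokinase itself and the target of Serpinb2, read 8.66 and 7.39 in GM-CSF cells against 7.11 and 6.92 in M-CSF cells and did not pass (log2 1.01 ± 0.38 SE, limma adjusted p = 0.16). Its log2 difference was 0.38 with GM-CSF replicate 1 left out and 1.65 with replicate 2 left out. Plat, tissue plasminogen activator, lay at background in both groups. S100a10, which binds plasminogen, was higher by 2.12 ± 0.21 (SE, limma adjusted p = 0.00256, up to 0.0769 without an M-CSF array), and Thbd, thrombomodulin, was lower at -1.74 ± 0.12 (0.000752).

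The plasma serpins Serpinc1, Serpind1, Serpina10 and Serping1 were at background, while 4 of 10 tested genes in a list of 18 coagulation and complement proteases were higher and 6 did not pass (limma, 0 lower, also 0 at an unadjusted p under 0.05), with a median of 0.39. The shares called over all genes tested were 6.18% higher and 4.53% lower. F7, coagulation factor VII, read 11.27 and 11.05 in GM-CSF cells against 6.87 and 6.70 in M-CSF cells, a 20.7-fold difference (log2 4.37 ± 0.13 SE, limma adjusted p = 6.57e-05). F10, the factor X that Serpinc1 and Serpina10 inhibit once activated, read 10.90 and 10.63 in GM-CSF cells against 7.81 and 7.46 in M-CSF cells (log2 3.13 ± 0.16 SE, limma adjusted p = 0.000297). C1s1, a protease gene for the target of Serping1, read 6.29 and 6.93 in GM-CSF cells against 3.57 and 3.39 in M-CSF cells, where it lay under background. F7, F10 and C1s1 kept their calls with each array left out in turn.

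The granule targets of Serpinb1a, Serpinb6a and Serpinb9 were near or below background. The lists built around these proteases also held other genes. Of 4 genes tested in a neutrophil serine protease list of 6 none was called (limma, also none at an unadjusted p under 0.05). These were Elane, Prtn3, Dpp4 and Ctsc, of which Dpp4 and Ctsc are not neutrophil serine proteases. Ctsc was far above background, with means of 12.46 in GM-CSF cells and 12.62 in M-CSF cells. Of 4 genes tested in a granzyme and perforin list of 12 none was called (1 higher and 1 lower unadjusted). These were Gzme, Gzmm, Prf1 and Srgn. The higher gene was Srgn, which is neither a granzyme nor perforin, and the lower was Gzme. Elane, neutrophil elastase, read 5.78 and 5.96 in GM-CSF cells against 6.00 and 6.08 in M-CSF cells, and Prtn3, proteinase 3, 5.94 and 5.89 in GM-CSF cells against 5.77 and 5.83 in M-CSF cells. Ctsg, cathepsin G, read 4.95 and 5.16 in GM-CSF cells against 5.04 and 4.98 in M-CSF cells. Gzmb, the target of Serpinb9, read 4.46 and 4.23 in GM-CSF cells against 4.52 and 4.10 in M-CSF cells.

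Of 11 cysteine cathepsins and caspases tested in a list of 14, limma called 3 higher, 1 lower and 7 neither, with a median of 0.21. Among all genes tested 6.18% were called higher and 4.53% lower. Ctsk, cathepsin K, was higher by 2.61 ± 0.19 (SE, limma adjusted p = 0.00076) and Ctss, cathepsin S, by 0.87 ± 0.12 (0.00852), while Ctso, cathepsin O, was lower at -0.66 ± 0.13 (0.0287). Ctss and Ctso lost their calls without either M-CSF array (limma, adjusted p up to 0.141 and 0.263). Ctsb, Ctsl and Casp1, which encode cathepsins B and L and the inflammasome caspase, averaged 13.07, 11.94 and 8.61 in GM-CSF cells against 13.26, 11.79 and 8.46 in M-CSF cells, and none passed.

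Inhibitors of other families gave 4 higher, 0 lower and 10 not passing of 14 tested in a list of 18 (limma, 1 lower at an unadjusted p under 0.05), with a median of 0.02. That stands beside 6.18% called higher and 4.53% lower over all genes tested. Spint1, a Kunitz inhibitor of membrane proteases, read 10.80 and 10.05 in GM-CSF cells against 6.62 and 6.65 in M-CSF cells (log2 3.80 ± 0.24 SE, limma adjusted p = 0.000511). Slpi, which blocks elastase and cathepsin G as Serpinb1a does, read 8.81 and 8.99 in GM-CSF cells against 7.17 and 6.96 in M-CSF cells (log2 1.84 ± 0.13 SE, limma adjusted p = 0.000716). Wfdc21 was higher by 1.63 ± 0.10 (SE, limma adjusted p = 0.00057), and these 3 genes kept their calls with each array left out in turn.

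Lrp1, which takes up serpin-protease complexes, read 11.08 and 11.03 in GM-CSF cells against 10.84 and 10.87 in M-CSF cells and did not pass (log2 0.20 ± 0.10 SE, limma adjusted p = 0.296). Of 7 receptors and helpers tested in a list of 8, limma called 3 higher, 1 lower and 3 neither, with a median of 0.43. The higher ones were Sort1, or sortilin (1.55 ± 0.25 SE), Lrpap1, the chaperone of Lrp1 (1.54 ± 0.14), and Lrp8 (1.20 ± 0.20), each of which lost its call without either M-CSF array (limma, adjusted p up to 0.191, 0.0623 and 0.198). Of 13 partners of Serpinh1 in collagen folding tested in a list of 16, 3 were higher, 0 lower (limma, 2 lower at an unadjusted p under 0.05) and 10 did not pass, with a median of 0.0048. These were Plod3 (1.02 ± 0.13 SE), P3h1 (0.61 ± 0.12) and P4ha1 (0.50 ± 0.11), enzymes that hydroxylate collagen, and each lost its call without either M-CSF array (limma, adjusted p up to 0.126, 0.225 and 0.274). P4ha1 also lost its call with no dim filter (limma, adjusted p = 0.0528). The calls in the receptor and collagen lists stand beside 6.18% called higher and 4.53% lower over all genes tested.

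**Figure D4:**
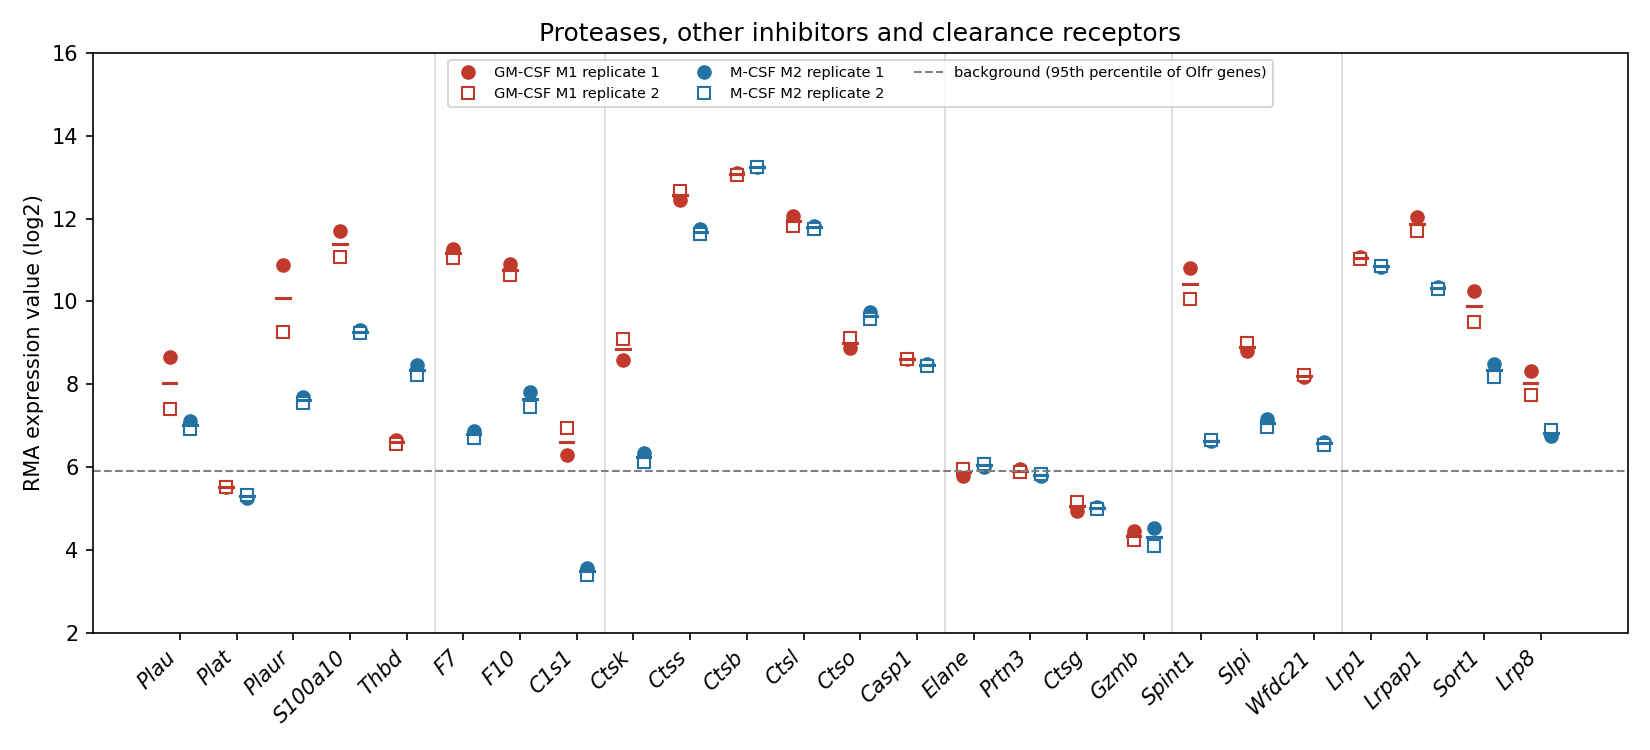
RMA values (log2) of protease, inhibitor and receptor genes, with GM-CSF arrays in red left of M-CSF arrays in blue, replicate 1 filled, replicate 2 open, short bars for group means and the background as a dashed line. From left to right the blocks are the plasminogen system, coagulation and complement, cysteine proteases, granule proteases, other inhibitors, and receptors. F7, F10 and Spint1 stand apart between the groups, and Elane, Prtn3, Ctsg and Gzmb sit close to or under background.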

How the data were processed

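Expression was read from 4 1-colour Affymetrix arrays, 2 of GM-CSF and 2 of M-CSF cells. The deposited values are log2 expression per probe set, which the authors made by RMA (Affymetrix Expression Console 1.1 in the submitters' processing notes). RMA brings arrays to one distribution and compresses differences of dim genes. No detection calls or batches were used here, and the number of arrays limits the precision.

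Probe sets with 1 symbol in the platform annotation (21789 of 35556) were named, and 19856 of 19938 genes matched RefSeq (GRCm38.p6) by gene ID. The brightest probe set stood for a gene. Genes with at least 2 of 4 arrays above the 30th percentile (14995) were tested in R 4.3.3 by limma 3.58.1 (lmFit, then eBayes; two-sided). Degrees of freedom were 2 residual and 4.17 prior. P-values were adjusted over all of them by Benjamini-Hochberg, at 0.05. The fit was tested on simulated data. These gave each gene the same spread in both groups, so they do not cover the wider gap of the GM-CSF pair. Differences are GM-CSF minus M-CSF. Named serpins are all that were above background or tested. Named partners are 13 fixed genes and up to 3 of each list with the largest called difference. Markers, Xist, Eif2s3y and Serping1 were named beside them. Members, lists and tests were chosen with earlier results of these data known. Motifs were chosen after the values were seen, as were the promoters shown. Alternatives were other filters, normalizations, probe set means, variances, a replicate block, a stricter threshold and leaving out each array. Replicate numbers were not treated as pairs, since the labels name no shared source. Tables and plots used Python 3.11.15, pandas 2.3.3 and matplotlib 3.10.9.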

Additional observations from a re-analysis of the deposited data

How the results depend on the processing

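With all 4 arrays 1 serpin was called higher and 1 lower (limma). With the replicate number as a block the counts were 2 higher and 2 lower, adding Serpinb8 and Serpinb6b, whose adjusted p from limma were then 0.0169 and 0.0178. With it P4ha1 lost its call (limma, adjusted p = 0.0507). The numbers share no stated source, and the same-numbered deviations correlated at 0.0649 across genes. Centring on array medians gave 2 lower. With the dim filter at the 50th percentile 6 serpins were tested, and Serpinb6b was not among them. Trended and robust variances gave 0 and 0 (limma, 2 and 2 at an unadjusted p under 0.05), as did an adjusted p of 0.01 (also 2 and 2 unadjusted), which also gave 661 genes over the whole table (438 higher, 223 lower) and 13 higher and 2 lower in the 8 partner lists, against 1605 (926 and 679) and 20 and 4. With the 99th percentile of olfactory receptor genes as background, 5 serpins lay above it, against 10.

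Leaving out each array in turn gave 0 to 3 serpins higher and 0 to 3 lower, 233 to 3205 genes over the table (168 to 1683 higher, 65 to 1522 lower) and 7 to 26 partner genes higher and 1 to 7 lower. The low counts are those without an M-CSF array, where the spread rests on the GM-CSF pair. The high counts are those without a GM-CSF array, where it rests on the closer M-CSF pair. Without M-CSF replicate 1, 0 serpins were called (limma, 2 higher and 1 lower at an unadjusted p under 0.05), and without M-CSF replicate 2 also 0 (1 higher and 2 lower). Of the 24 partner genes called, 8 kept their call without M-CSF replicate 1 and 9 without M-CSF replicate 2. Direction changed with an array left out for Serpinb1a (-1.43 to 0.83), Serpinb9 (-0.41 to 0.15), Serpina10 (-0.21 to 0.37), Serpinc1 (-0.13 to 0.0878), Serpind1 (-0.35 to 0.0216), Serpine3 (-0.0449 to 0.0747) and Serpinh1 (-0.0434 to 0.0837), with the cause not tested. Other settings changed no direction of the tested serpins or named partners.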
